A study of Homo sapiens with 6 samples.

Results

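The CREB3 family comprises 5 transcription factor genes, *CREB3*, *CREB3L1*, *CREB3L2*, *CREB3L3* and *CREB3L4*, which were described here in MDA-MB-453 cells after knockdown of the phosphatase gene *DUSP6*. The members were taken by gene symbol, 5 of the 22807 genes in the table, and the family was chosen on the measured values of *CREB3L1*, whose strong fall after *DUSP6* siRNA was seen in these same libraries. MDA-MB-453 is an established HER2+ breast cancer cell line. RNA was sequenced in 6 libraries, 3 from cells transfected with scrambled siRNA, labelled as WT, and 3 from cells transfected with *DUSP6* siRNA, labelled as DUSP6 KD. All 6 came from the same line in the same serum-containing medium. The siRNAs were introduced transiently with a lipid reagent, and the study describes different siRNAs within each group without tying them to libraries. The p-values measure the spread between these libraries, which includes any difference between siRNAs, and the labels do not say how the cultures were replicated. The RNA was that of the whole culture, and fewer cells carrying a transcript cannot be told apart from less of it per cell.

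CREB3 family proteins are made as inactive precursors that sit in the membrane of the endoplasmic reticulum (ER) through a single membrane-spanning segment. When they travel to the Golgi apparatus, the site-1 and site-2 proteases cut them, and the freed bZIP domain enters the nucleus and binds DNA. Members are known for raising genes of the secretory pathway, among them coat proteins of ER transport vesicles, Golgi proteins and collagens. *CREB3* (Luman) is widely expressed, *CREB3L1* (OASIS) is known from bone and glia, *CREB3L2* (BBF2H7) from cartilage, *CREB3L3* (CREBH) from liver and gut and *CREB3L4* (AIbZIP) from prostate. mRNA levels do not show how much of each protein was cut.

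The stretch before the start of *CREB3L2* is shown because it holds the element that gives the CREB proteins their name, the cAMP response element. It was read from hg38 within the 250 bases before the start of the GENCODE canonical transcript, without exons of any gene. Capitals mark matches to 4 motifs, searched on both strands. The full cAMP response element is TGACGTCA. Its core is TGACG, which overlaps the full element on each strand. The ER stress response element contains the letters CCACG. It also contains the CCAAT box, spelled by its name. These parts were searched separately, without regard to their order or spacing, so matches to both do not show a full element.
CREB3L2, chr7:138002087-138002323, minus strand: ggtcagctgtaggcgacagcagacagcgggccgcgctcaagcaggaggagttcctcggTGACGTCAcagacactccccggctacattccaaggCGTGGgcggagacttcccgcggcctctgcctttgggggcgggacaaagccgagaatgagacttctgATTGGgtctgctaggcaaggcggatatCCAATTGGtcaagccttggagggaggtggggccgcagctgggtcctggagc
The *CREB3L2* stretch held TGACGTCA 179 bases before the start, which 2.41% of the windows of 19970 protein-coding genes hold. It also held 1 match to CCACG at 144 bases and matches to CCAAT at 78, 51 and 48 bases, of which the last 2 overlap. CCACG occurred in 39.1% of those windows. CCAAT occurred in 34.3% and TGACG in 25.4% of them. The GC content of the *CREB3L2* window was 62.4%, against a median of 63.2% over all windows. The windows of *CREB3* and *CREB3L4* run into exons and are not shown. In the full windows, TGACG was found for *CREB3* but not for *CREB3L4*, and TGACGTCA for neither. The *CREB3L3* window holds no exons and is not shown either. It had no match to TGACGTCA, TGACG or CCACG, and 1 to CCAAT. The window of *CREB3L1* is not reported here. A match is a description of the letters and not of a bound site.

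The table held a normalized value for each gene in each library, which is its reads scaled to library size and composition on a linear scale. The values gave back whole reads, with 45546981 to 85729785 reads per library. Differences were tested with limma, on log2(value + 1), in 12862 genes whose mean reached 1. The p-values were adjusted over all 12862 by Benjamini-Hochberg, and a gene was called at an adjusted p under 0.05. *DUSP6* fell in every *DUSP6* siRNA library, to between 24.5 and 39.4, from between 110 and 209 with scrambled siRNA (log2 fold change -2.05 with a standard error of 0.25, adjusted p = 3.09e-04 in limma). A gene on the opposite strand covers 28.6% of the *DUSP6* exon bases, and the counting is described as run at default settings, which do not use strand, so reads of the 2 strands cannot be told apart. The cells had their luminal epithelial markers (summed value 4018 to 5349 with scrambled siRNA and 2960 to 3161 with *DUSP6* siRNA, 6 of 9 called lower). The summed endothelial markers reached at most 0.402 and the fibroblast markers at most 0.298 in any library. The summed leukocyte markers reached 4.47 to 5.49 with scrambled siRNA and 3.45 to 5.48 with *DUSP6* siRNA. Nearly all of this was *CD68*, a lysosomal protein gene (means 5.00 and 4.53, overlapping groups), while the pan-leukocyte gene *PTPRC* had mean values of 0.017 and 0.055. All 10 interferon response genes examined were called higher, with a summed value of 42.2 to 91.0 with scrambled siRNA and 3401 to 3965 with *DUSP6* siRNA. This rise moved with the groups in all 6 libraries. Within the scrambled siRNA group, replicate 3 was highest for each of these genes except *MX1*. *IFI6*, for example, had values of 3.03, 1.82 and 13.1 in the order of the replicates. The part of the interferon response in the results below, among them the low *CREB3L1* value of scrambled siRNA replicate 3, was not tested.

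*CREB3L1*, the member the family was chosen for, went from a level similar to that of *CREB3L2* per length of transcript to the lowest level of the 4 members above the filter. *CREB3L1* (Entrez gene 90993, chromosome 11, 46277662 to 46321409 on GRCh38) had values of 35.5, 50.9 and 12.2 with scrambled siRNA, in the order of the replicates, and of 3.54, 2.37 and 3.04 with *DUSP6* siRNA. The groups did not overlap, and the lowest scrambled siRNA library, replicate 3, was 3.46 times the highest *DUSP6* siRNA library. The scrambled siRNA mean was 32.9 ± 19.4 (SD, n = 3) and the *DUSP6* siRNA mean 2.98 ± 0.585 (SD, n = 3), so that 9.08% of the scrambled level was left. These values rested on 1016 to 2655 reads per scrambled siRNA library and 175 to 197 reads per *DUSP6* siRNA library. The log2 fold change on the log2(value + 1) scale was -2.89 (standard error 0.41). No p is given because the gene was picked for this difference. The scrambled siRNA libraries differed from each other by 4.16-fold, the widest spread of any member, while the *DUSP6* siRNA libraries differed by 1.49-fold. Without scrambled siRNA replicate 3 the log2 fold change was -3.46, and without scrambled siRNA replicate 2 it was -2.48. With edgeR on the recovered reads it was -3.44.

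Of the 3 members tested besides *CREB3L1*, only *CREB3L4* was called, and it was lower. The values of *CREB3L4* (Entrez gene 148327, chromosome 1, 153967487 to 153974359) were 152, 151 and 211 with scrambled siRNA and 106, 84.6 and 99.1 with *DUSP6* siRNA, each in the order of the replicates. Every *DUSP6* siRNA library lay below every scrambled siRNA library. Its mean was 171 ± 34.1 (SD, n = 3) with scrambled siRNA and fell to 96.5 ± 10.8 (SD, n = 3). On the log2 scale the fold change was -0.81 with a standard error of 0.14, and limma gave an adjusted p of 0.00217. Scrambled siRNA replicate 3 was highest for *CREB3L4* and lowest for *CREB3L1*. *CREB3L4* was called lower under all 14 alternatives run, with log2 fold changes between -0.89 and -0.65 and adjusted p-values between 3.70e-04 and 0.0155. Exons of *SLC39A1*, on the opposite strand, cover 9.65% of the *CREB3L4* exon bases and those of *JTB* 3.20%. How many reads of *CREB3L4* this affected was not measured. *SLC39A1* itself had a log2 fold change of -0.39 and was called lower, with groups that did not overlap (limma adjusted p = 0.00933). *JTB* had one of -0.064 and was not called.

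*CREB3* was at about the same level in both groups. *CREB3* (Entrez gene 10488, chromosome 9, 35732666 to 35736999) had values of 90.2, 116 and 97.5 with scrambled siRNA and of 113, 101 and 113 with *DUSP6* siRNA. The groups overlapped. The log2 fold change was 0.11, with a 95% confidence interval of -0.14 to 0.36 (limma adjusted p = 0.449). Exons of *GBA2* on the opposite strand cover 8.20% of its exon bases. *GBA2* itself had a log2 fold change of -0.21 and was not called (limma adjusted p = 0.132), with groups that did not overlap. How many reads of *CREB3* this affected was not measured.

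*CREB3L2* differed among the scrambled siRNA libraries and hardly at all among the *DUSP6* siRNA libraries. *CREB3L2* (Entrez gene 64764, chromosome 7, 137874979 to 138002086) had values of 92.9, 49.4 and 69.4 with scrambled siRNA and of 60.3, 58.5 and 60.1 with *DUSP6* siRNA, replicates in order. All 3 *DUSP6* siRNA libraries lay within the range of the scrambled siRNA libraries. The log2 fold change was -0.19, with a 95% confidence interval of -0.62 to 0.24 (limma adjusted p = 0.431). Its sign rested on scrambled siRNA replicate 1, without which it was 0.026. Without scrambled siRNA replicate 2 it was -0.42 and called lower (limma adjusted p = 0.0317). The antisense gene *CREB3L2-AS1* had at most 2 reads in any library.

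*CREB3L3* was not detected beyond 1 read, in scrambled siRNA replicate 3. The other 5 libraries held 0 reads, and a count of 3 reads would correspond to values of 0.0362 to 0.0607, for counting error only. It was under the filter, no fold change is given, and the two-sided exact permutation test over the libraries gave p = 1.0.

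**Figure D1:**
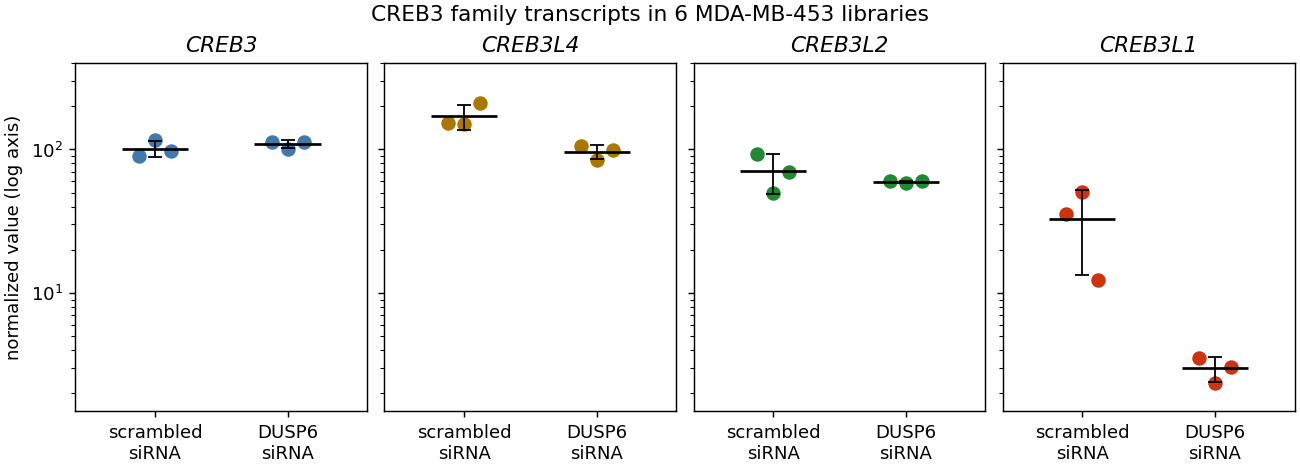
Normalized values on a log axis of the 4 members that were tested, 1 point per library, with the group mean as a line and the SD as an error bar (n = 3 per group). The groups are apart for *CREB3L1* and *CREB3L4* and overlap for *CREB3* and *CREB3L2*.

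Besides *CREB3L1*, which was chosen for its fall and is not counted, 3 members had a mean value of at least 1. In 1 of these 3 all *DUSP6* siRNA libraries were below the scrambled siRNA libraries, as in 31.1% of the 12862 genes tested. In none of the 3 were they all above, which was so in 26.7% of the genes tested. At an adjusted p under 0.05, 24.7% of the genes tested were lower and 19.7% were higher. Of the same 3 members, 1 was called, and this share stands near the background.

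Divided by the length of the canonical transcript, *CREB3L4* and *CREB3* made up most of the family in every library. With scrambled siRNA the normalized value per kb was 97.9 ± 19.5 (SD, n = 3) for *CREB3L4*, 67.8 ± 9.0 for *CREB3*, 12.3 ± 7.28 for *CREB3L1* and 9.48 ± 2.92 for *CREB3L2*. The libraries of *CREB3L4* (86.2 to 120) and *CREB3* (60.3 to 77.8) did not overlap, nor did those of *CREB3* and the lower members. Those of *CREB3L1* (4.58 to 19.0) and *CREB3L2* (6.64 to 12.5) did overlap, and their order differed between libraries. With *DUSP6* siRNA the order was *CREB3* (67.6 to 75.4), *CREB3L4* (48.3 to 60.5), *CREB3L2* (7.86 to 8.11) and *CREB3L1* (0.888 to 1.32), with no overlap between neighbors. The leading member was thus *CREB3L4* in all 3 scrambled siRNA libraries and *CREB3* in all 3 *DUSP6* siRNA libraries. The share of *CREB3* in the family per kb was 36.2 ± 4.33% (SD, n = 3) and 53.2 ± 1.19%, that of *CREB3L4* 52.0 ± 7.60% and 40.2 ± 1.44%, and that of *CREB3L1* 6.67 ± 3.97% and 0.810 ± 0.10%, with scrambled and *DUSP6* siRNA respectively. Each share depends on the other members as well, and the mean of *CREB3* itself was 67.8 per kb with scrambled and 72.8 with *DUSP6* siRNA. Summed over the family, the value per kb was 187 ± 13.3 (SD, n = 3) in the scrambled siRNA group and 137 ± 10.9 (SD, n = 3) in the other. The sum and the shares include *CREB3L1*, which was chosen for its fall, and are a description. The transcript isoform present in these cells was not measured, so the lengths are those of the annotation.

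**Figure D2:**
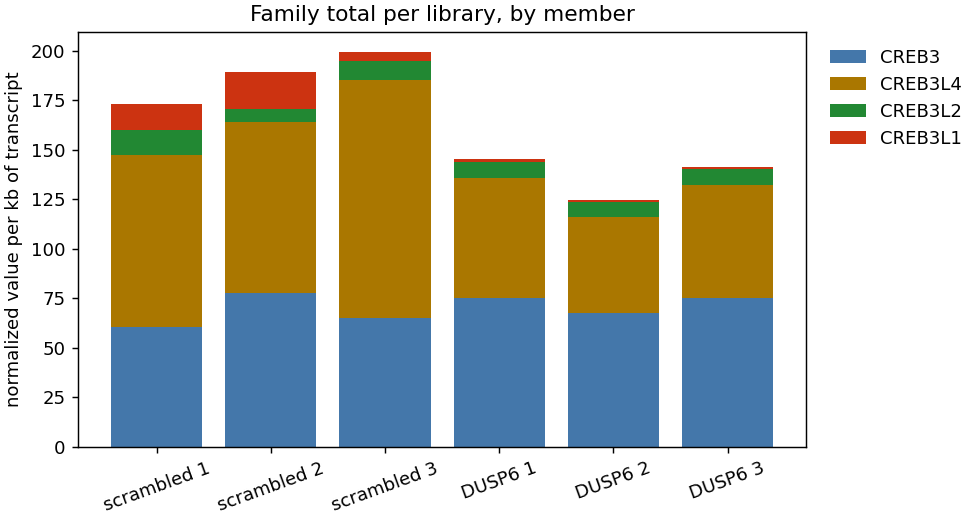
Stacked bars of the normalized value per kb of canonical transcript for each member in the 6 libraries, with the bar height giving the family sum. *CREB3L4* is the largest part of each scrambled siRNA bar, *CREB3* of each *DUSP6* siRNA bar, and the *CREB3L1* part is at most 1.32 in the *DUSP6* siRNA libraries.

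A ratio between members within a library does not depend on a scaling factor applied to the whole library. The log2 ratio of *CREB3L4* to *CREB3* was 0.76, 0.37 and 1.11 with scrambled siRNA and -0.091, -0.26 and -0.19 with *DUSP6* siRNA. It was positive in every scrambled siRNA library and negative in every *DUSP6* siRNA library, a difference of -0.93 (p = 0.1 by a two-sided exact permutation test, which cannot go lower with 3 libraries against 3). The ratio of *CREB3L4* to *CREB3L2* overlapped between the groups, with a difference of -0.62 (two-sided exact permutation test, p = 0.3), as did that of *CREB3L2* to *CREB3*, with a difference of -0.30 (p = 0.6 in the same exact test). The 3 ratios that do not involve *CREB3L1* share members and are not independent. As a description, the log2 ratio of *CREB3L1* to *CREB3L2* was -1.39, 0.042 and -2.5 with scrambled siRNA and -4.09, -4.62 and -4.30 with *DUSP6* siRNA. The spread of this ratio holds that of both genes. Among the scrambled siRNA libraries *CREB3L1* differed by 4.16-fold and *CREB3L2* by 1.88-fold.

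**Figure D3:**
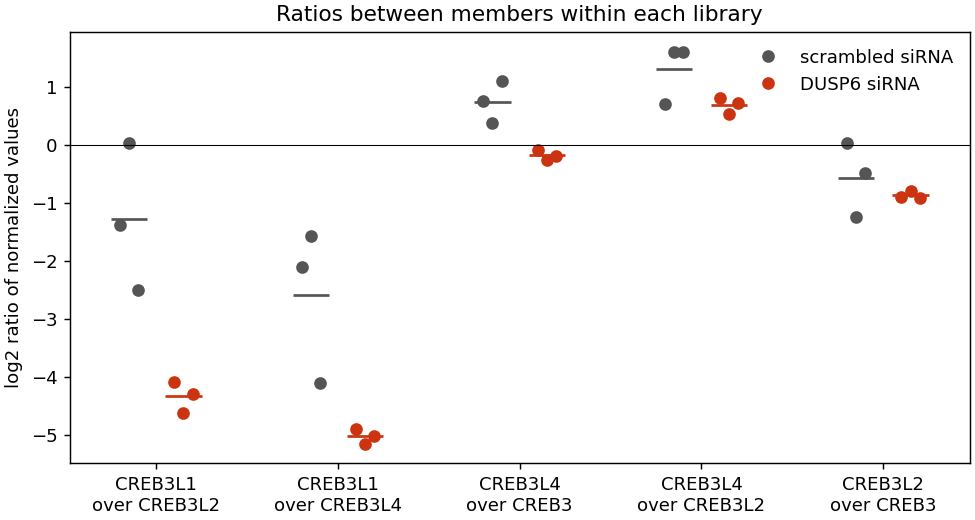
Log2 ratios of normalized values between members within each library, 1 point per library, gray for scrambled siRNA and red for *DUSP6* siRNA, with group means as lines. The *CREB3L4* to *CREB3* ratio changes sign between the groups, and the *CREB3L1* ratios are lower in every *DUSP6* siRNA library.

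The genes whose profile over the 6 libraries was closest to that of *CREB3L1* were *SLC16A6*, *POU2F3*, *TNS1*, *VTCN1* and *ARHGDIB*. Closeness was the root mean square difference of log2(value + 1), each gene centred on its own mean, which ranged from 0.371 for *SLC16A6* to 0.448 for *ARHGDIB*. Pearson correlations with *CREB3L1* lay between 0.962 and 0.983 over the 6 libraries, which mostly reflect the difference between the 2 groups. Their log2 fold changes ranged from -3.06 in *POU2F3*, a transcription factor gene of tuft cells, to -2.26 in *VTCN1*, an immune checkpoint ligand gene. In all 5 scrambled siRNA replicate 3 was the lowest scrambled siRNA library, a likeness that their selection on these 6 libraries favors. In *SLC16A6*, a monocarboxylate transporter family gene, the values were 693, 599 and 337 with scrambled siRNA and 99.0, 73.9 and 89.9 with *DUSP6* siRNA.

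**Figure D4:**
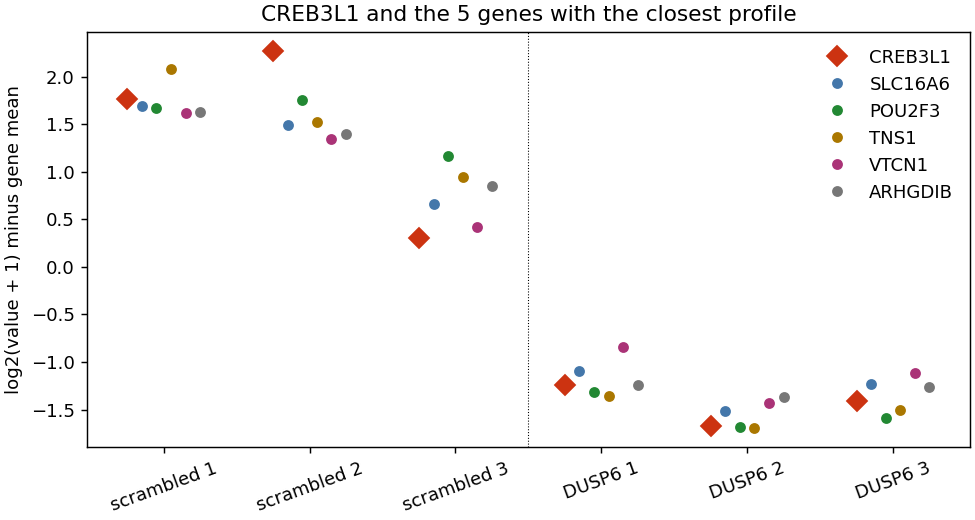
Log2(value + 1) minus the mean of each gene over the 6 libraries, for *CREB3L1* (diamonds) and the 5 genes with the smallest root mean square difference from it (circles). The genes were selected for this likeness. Scrambled siRNA replicate 3 is the lowest scrambled siRNA library for all 6, and all *DUSP6* siRNA points lie at -0.84 or lower.

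Genes around the family were followed in 8 lists that hold 127 genes, of which 111 were tested. Of these, 20 were called higher and 25 lower, which is 18.0% and 22.5%, against 19.7% and 24.7% of all genes tested. The median log2 fold change was -0.018, and -0.014 over all genes. Quantile normalization turned this split around, to 37 higher and 16 lower, and gave 2958 higher and 2887 lower among all genes tested. Without *DUSP6* siRNA replicate 3, 12 were higher, while the higher genes among all those tested went from 2540 to 1686.

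Among ER membrane bZIP factors and partners, 1 of 8 was higher and 2 lower. *XBP1*, an ER stress transcription factor gene active in luminal cells, fell from 1653 to 1014, with values of 1709, 1605 and 1644 with scrambled siRNA and 1100, 900.2 and 1041 with *DUSP6* siRNA (log2 fold change -0.71, limma adjusted p = 9.82e-04). *HCFC2*, a relative of the CREB3 cofactor gene *HCFC1*, fell by 0.53 on the log2 scale. *CREBRF*, whose product binds CREB3 and restrains it, rose from 13.3 to 31.6 (log2 fold change 1.2, limma adjusted p = 3.78e-04). *ATF6*, the best known ER factor cut by the same proteases, was not called at -0.21 (limma adjusted p = 0.0948), although its groups did not overlap. Without scrambled siRNA replicate 3 it was called, and 4 genes of the list were lower. Among nuclear CREB factors and coactivators, 2 of 9 were higher, *CREB5* (0.88) and *CREM* (0.46), and 2 were lower, the coactivators *EP300* (-0.61) and *CREBBP* (-0.60). *CREM* lost its call without *DUSP6* siRNA replicate 1 or 3, which left 1 higher gene, and without scrambled siRNA replicate 3 there were 4 lower genes.

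In the list of regulated proteolysis and ER retention, 1 of 9 was higher and 3 were lower. *SYVN1*, an ER ubiquitin ligase gene, rose by 0.50 on the log2 scale. *SREBF1* (-0.83) and *INSIG1* (-0.69), a membrane-bound factor of lipid synthesis and its retention protein, fell, as did *SREBF2*. The site-1 protease gene *MBTPS1*, which cuts CREB3 family proteins, had values of 67.4, 124 and 135 with scrambled siRNA and 145, 168 and 147 with *DUSP6* siRNA. The groups did not overlap, but the log2 fold change of 0.55 was not called (limma adjusted p = 0.0741). Without scrambled siRNA replicate 1, the lowest library, it was 0.24. It was called without scrambled siRNA replicate 3 (0.74), and the higher genes of the list then numbered 3, or 2 without scrambled siRNA replicate 2. With a replicate block *MBTPS1* was called as well, at an adjusted p of 0.0157 in a range of 0.0157 to 0.217 over the alternatives, and the list had 3 higher genes, as it did under quantile normalization. The site-2 protease gene *MBTPS2* had a log2 fold change of 0.14 and overlapping groups.

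The COPII coat, which carries cargo from the ER, had 2 of 22 genes higher and 4 lower. *SEC31B*, a minor form of an outer coat gene, rose from 12 to 31.8 (log2 fold change 1.34), and *SAR1A*, the GTPase that starts the coat, by 0.50. *TFG*, which organizes ER exit sites, fell from 131 to 68.6 (log2 fold change -0.92), and *SEC23A*, an inner coat gene, by 0.43 on the log2 scale. Under quantile normalization 5 were higher and 2 lower. Leaving out any 1 of the *DUSP6* siRNA libraries also reduced the lower genes to 2. In the COPI coat and Golgi list, 2 of 22 were higher and 7 lower. *COPG2* (0.81) and *COPB1* (0.38) of the coat rose, while *KDELR3* (-0.78), a retrieval receptor gene, and *GOLGA5* (-0.69), a golgin gene, fell. Under quantile normalization 10 were higher and 3 lower. Without *DUSP6* siRNA replicate 2, 1 was higher and 4 were lower. Without *DUSP6* siRNA replicate 3, 1 was higher, and without scrambled siRNA replicate 3, 4 were higher. The median log2 fold change was -0.013 in the COPII list and -0.012 in the COPI and Golgi list.

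The translocon and signal peptide list had 5 of 24 genes higher and 6 lower, and 7 higher and 2 lower under quantile normalization. *SRP14*, a subunit of the signal recognition particle, showed the largest decrease of any tested list gene, with values of 378, 379 and 274 with scrambled siRNA and 107, 94.7 and 95.8 with *DUSP6* siRNA (log2 fold change -1.77, limma adjusted p = 2.44e-05). *SRP72*, of the same particle, fell by 0.51 on the log2 scale, whereas *SRPRA*, its receptor on the ER, rose from 136 to 256 (log2 fold change 0.94). *SEC61B*, a channel subunit gene, rose by 0.42, but was no longer called without scrambled siRNA replicate 1 or 2 or without any 1 of the *DUSP6* siRNA libraries. The higher genes numbered 1 without any 1 of the *DUSP6* siRNA libraries, 2 without scrambled siRNA replicate 1 and 3 without scrambled siRNA replicate 2.

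Of the 21 collagen genes and their processing enzymes, 13 were tested, 4 were higher and 1 was lower. *COL12A1* rose from 6.60 to 26.4 (log2 fold change 1.91) and *P3H1*, a collagen prolyl hydroxylase gene, from 10.6 to 37.4 (1.73). *PLOD2*, a lysyl hydroxylase gene, fell from 66.9 to 24.1 (-1.41), and there were 2 lower genes without scrambled siRNA replicate 3 or under quantile normalization. Among the known direct targets of the family, 8 of 13 were tested, 4 were higher and 1 was lower, with a median log2 fold change of 0.47. Of all genes tested, 19.7% were higher and 24.7% lower. The list is small, and whether it departs from these shares was not tested. *COL1A1*, a target of CREB3L1 in bone, had values of 105, 80.7 and 90.9 with scrambled siRNA and 192, 165 and 162 with *DUSP6* siRNA (log2 fold change 0.90, limma adjusted p = 4.21e-04). The groups of *COL1A1* did not overlap, and any link to the level of *CREB3L1* was not tested. *CDKN1A*, the p21 cell cycle inhibitor gene, also rose, from 52.1 to 92.7 (0.83). *HERPUD1* (0.62) and *EDEM1* (0.57), ER-associated degradation genes, rose as well, although *HERPUD1* lost its call without *DUSP6* siRNA replicate 3. *SEC23A*, a target of CREB3L2, was the 1 lower gene. *HSPA5* (0.18), *ARF4* (0.36) and *SEC24D* (0.051) were not called. *HSPA5* and *ARF4* were called higher under quantile normalization, and *ARF4* also without scrambled siRNA replicate 3 and with a replicate block (adjusted p = 0.0242). The targets of CREB3L3 in the table, *APOA4*, *FGF21* and *HAMP*, had mean values under 1, as did *CREB3L3* itself.

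**Figure D5:**
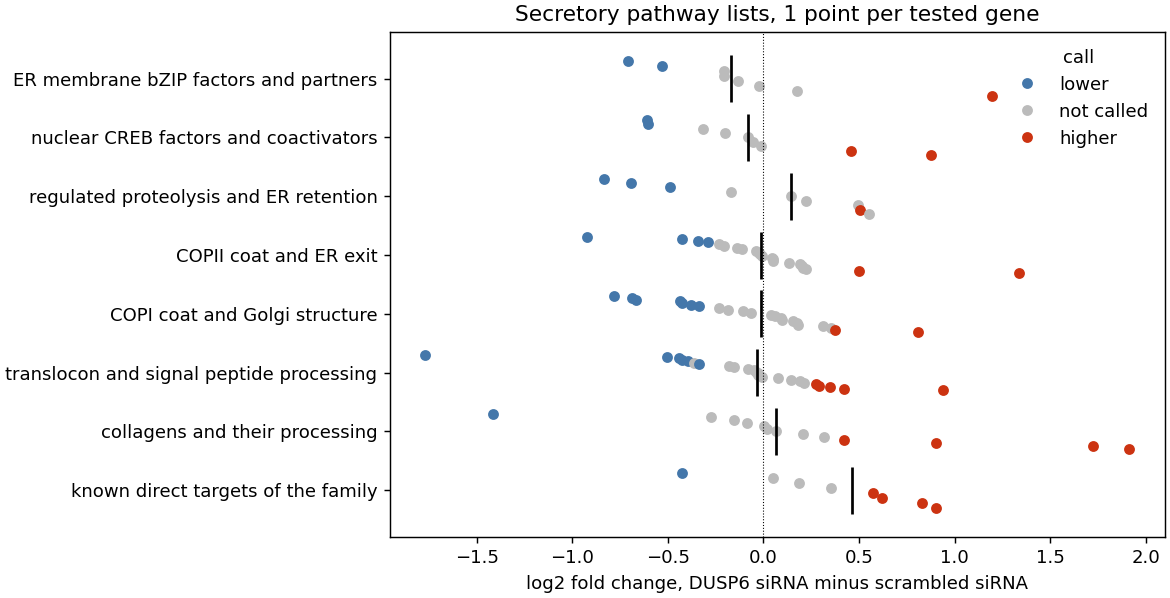
Log2 fold change (DUSP6 siRNA minus scrambled siRNA) of each tested gene in the 8 lists, red for called higher, blue for called lower and gray for not called, with the list median as a vertical line. The medians lie between -0.17 and 0.47, and all 8 lists hold calls in both directions.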

How the data were processed

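RNA of 6 libraries was sequenced on an Illumina platform after poly(A)-based stranded library preparation. Alignment to hg38 and counting on RefSeq models were done by the authors with Rsubread at default settings, which ignore strand, and the deposited table holds a normalized signal value per gene and library. Per the labels, edgeR and bcl2fastq were also used. Dividing by the smallest step of a library gave whole reads for 100% of values (within 0.001 of a whole number), and the steps matched TMM scaling of edgeR to within 3e-15. From there, limma 3.58.1 in R 4.3.3 was run on log2(value + 1), with a trend, for genes whose mean reached 1. Adding 1 makes fold changes of low genes smaller. edgeR 4.0.16's quasi-likelihood test was run on the recovered reads. Both were tested on simulated reads with known changes. The simulation gave every gene the same variability and held no differences between siRNAs, so it does not show performance at the spread of these libraries. scipy 1.17.1 gave exact permutation tests. As alternatives, each library was left out in turn, 0.1 was added in place of 1, the filter was dropped or set to 10, libraries were rescaled by quantiles or by the median of ratios, the replicate number was added as a block, the trend was dropped, and edgeR was used.

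The members and lists were chosen with earlier results of these data known. Named were all members, the 2 genes called higher and the 2 called lower with the largest change in each list, and the 5 profiles closest to *CREB3L1*. *MBTPS1*, *MBTPS2*, *ATF6*, *SREBF2*, *PTPRC*, *CD68* and the further direct targets were chosen after their values were seen. Positions came from RefSeq on GRCh38 and transcript lengths from GENCODE. Protein sequences were not used here, and some items are not reported here.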

Additional observations from a re-analysis of the deposited data

How the results depend on the processing

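The fold changes of *DUSP6*, *CREB3* and *CREB3L4* kept their direction and their side of the threshold under all 14 alternatives, and that of *CREB3L1*, which has no test, stayed between -3.46 and -2.48. For *CREB3L2*, the 6 fits that each left out 1 library ranged from -0.42 to 0.026, with 0.026 without scrambled siRNA replicate 1 and a call only at -0.42 without replicate 2. No fold change of *CREB3L3* is given, since it had 1 read in all. List genes called higher rose from 20 to 37 and those called lower fell from 25 to 16 under quantile normalization, and the cause was not tested. Leaving out 1 library gave 12 to 29 higher and 19 to 32 lower, and 1535 to 3183 higher and 2301 to 3577 lower among all genes tested. Of 570 comparisons for 41 named genes outside the family, 550 kept their direction and call, 10 lost a call, 8 gained one and 2 changed sign. Both sign changes were in *SEC24D*, -0.080 without scrambled siRNA replicate 3 and -0.051 without *DUSP6* siRNA replicate 3, in a leave-one-out range up to 0.17. Deviations of same-numbered libraries correlated at 0.005, 0.0868 and -0.0764, and those of differently numbered libraries at -0.0907 to 0.132. The main fit did not treat the replicate numbers as pairs, and whether libraries shared a batch was not tested. With the replicate block, the fold change of *CREB3L4* stayed at -0.81 (adjusted p = 3.70e-04) and no call of a family member changed. At this depth the 1 read of *CREB3L3* is under the floor of 3 reads, and absence cannot be told apart from a lower level.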
